A study of Mus musculus with 9 samples.

Results

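The miR-99/100 and miR-125 families were followed in mouse liver through 6 mature miRNAs of the deposited table of 1140 rows. The members were taken by name, namely mmu-miR-99a-5p, mmu-miR-99b-5p, mmu-miR-100-5p, mmu-miR-125a-5p, mmu-miR-125b-5p and mmu-miR-125b-1-3p. All 6 had counts in every sample and passed the filter on low counts in every comparison. The study sequenced small RNAs from the livers of 9 male C57BL/6 mice that were 8 weeks old at the start, with 3 mice per group. Control mice were injected intraperitoneally with normal saline for 8 weeks, and TAA mice with thioacetamide (TAA), a hepatotoxic compound that leads to liver fibrosis, over the same 8 weeks. Recovery mice first had TAA in the same way and then stayed off it for a further 8 weeks, so recovery and elapsed time cannot be told apart. The labels named no batch.

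MiRNAs repress mRNAs that pair with their seed, the bases near the 5′ end, so miRNAs with 1 seed are grouped as a family. The mouse genome holds paralogous clusters in which a miR-99/100 gene, a let-7 gene and a miR-125 gene lie in this order on the same strand. The miR-99/100 family is known for repressing mTOR and the miR-125 family for repressing Lin28, whose protein blocks let-7 maturation. The miR-125 hairpins can yield a miRNA from each arm, named 5p and 3p.

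The mature sequences of the members are shown because the clusters differ in few bases, which decides what a read can tell. Sequences come from RefSeq (GRCm38.p6), run 5′ to 3′, and carry the seed (bases 2 to 8) in capitals.
mmu-miR-99a-5p: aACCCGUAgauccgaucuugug
mmu-miR-100-5p: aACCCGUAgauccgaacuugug
mmu-miR-99b-5p: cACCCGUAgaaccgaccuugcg
mmu-miR-125a-5p: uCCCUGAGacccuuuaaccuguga
mmu-miR-125b-5p: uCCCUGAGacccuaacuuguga
mmu-miR-125b-1-3p: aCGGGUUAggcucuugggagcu
mmu-miR-125b-2-3p: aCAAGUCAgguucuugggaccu

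With positions counted from the 5′ end, mmu-miR-100-5p differed from mmu-miR-99a-5p by the single substitution U16A. From mmu-miR-99a-5p to mmu-miR-99b-5p the substitutions were A1C, U11A, U16C and U21C. The miR-125 members mmu-miR-125b-5p and mmu-miR-125a-5p shared their first 13 bases and lay 3 edits apart. The 3p arms mmu-miR-125b-1-3p and mmu-miR-125b-2-3p differed by G3A, G4A, U7C, C11U and G20C, so their seeds differ and reads can be assigned to either gene. In contrast, mmu-miR-125b-5p is the same sequence from Mir125b-1 and Mir125b-2, and its row cannot be split by gene. Of the 1140 rows, 935 had a RefSeq mature sequence, and the only row beyond the members with a member's seed was mmu-miR-351-5p, which carries the miR-125 seed CCCUGAG.

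In GENCODE M21 (GRCm38) the Mir99a cluster, with Mirlet7c-1 and Mir125b-2, spanned 47.41 kb of chromosome 16 (77598936 to 77646343, plus strand) within introns of the long non-coding gene Mir99ahg. Mir125b-2 also overlapped an exon of C130023A14Rik, and Mir99a and Mirlet7c-1 lay in introns of the protein-coding gene Gm11146 on the opposite strand. The Mir100 cluster, with Mirlet7a-2 and Mir125b-1, spanned 50.58 kb of chromosome 9 (41531425 to 41582002, plus strand) within introns of the non-coding genes 3110039I08Rik and Gm49317. Mir125b-1 also overlapped an exon of the sense-intronic gene Gm28119, and Mir100 an exon of the non-coding gene Gm48742 on the opposite strand. The Mir99b cluster, with Mirlet7e and Mir125a, was compact, with 692 bases of chromosome 17 (17830188 to 17830879, plus strand) inside Spaca6, a gene known for a sperm protein needed in fertilization. Mir99b and Mirlet7e lay in introns of Spaca6 and Mir125a overlapped an exon. Mirlet7e also overlapped the miRNA gene Gm25927 on the opposite strand.

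The libraries held between 9071847 and 12983378 counts. The values below are counts per 1000000 scaled by TMM factors (CPM), which assume that most miRNAs do not change, next to the deposited TPM, which were scaled by library totals. The TMM factors were 0.738 to 0.792 in control, 1.43 to 1.63 in TAA and 0.766 to 0.887 in recovery libraries, so the scales set TAA libraries differently against the rest. The median log2 fold change of all tested miRNAs in TAA vs control was 0.11 with TMM and 1.23 with library totals. For recovery against TAA it was -0.12 and -0.98. The study describes separate mice and the labels give replicate numbers, so each library was taken as a different mouse. The p-values cover the spread between these mice. In bulk liver, fewer cells of a type and less of a miRNA per cell cannot be told apart.

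Marker miRNAs of several cell types moved with the groups, as did many other miRNAs. In TAA vs control 134 of all 420 tested miRNAs rose and 111 fell, against 302 and 22 with library totals. All 4 hepatocyte markers fell in TAA vs control (2 of 4 with library totals), with a summed level of 362053 to 377113 CPM in control, 107483 to 113987 in TAA and 273277 to 401943 in recovery. All 5 biliary markers rose, from 582 to 764 CPM in control to 3331 to 5534 in TAA, and lay at 1240 to 1415 in recovery (rounded to whole CPM). Of the stellate cell or fibroblast markers 3 of 5 rose (5 of 5 with library totals), with summed levels of 25481 to 31110, 18031 to 39498 and 21870 to 35801 CPM in control, TAA and recovery. Of the leukocyte markers 4 of 5 rose, and 5 of 5 with library totals (190 to 211, 274 to 319 and 146 to 222 CPM), both endothelial markers fell but rose with library totals (8477 to 8951, 5699 to 6894 and 8347 to 9122 CPM), and 2 of 4 red cell markers fell but 0 with library totals (814 to 1362, 212 to 483 and 342 to 644 CPM). No marker was at 0, and their part in the results was not tested.

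The members differed widely in level. In control liver mmu-miR-99a-5p was at 5420 ± 238 CPM (SD, n = 3), mmu-miR-100-5p at 1632 ± 38.6 and mmu-miR-99b-5p at 713 ± 18.1. The miR-125 members were at 422 ± 31.2 for mmu-miR-125b-5p and 136 ± 31.8 for mmu-miR-125a-5p, and mmu-miR-125b-1-3p was at 2.97 ± 0.505. The values of neighbours in this order did not overlap in control or recovery. In TAA liver the order of the means was the same, with 159 ± 29.7, 64.7 ± 17.6, 52.6 ± 5.51, 19.7 ± 5.53, 6.86 ± 1.05 and 0.382 ± 0.204 CPM per base. There mmu-miR-100-5p and mmu-miR-99b-5p overlapped.

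**Figure D1:**
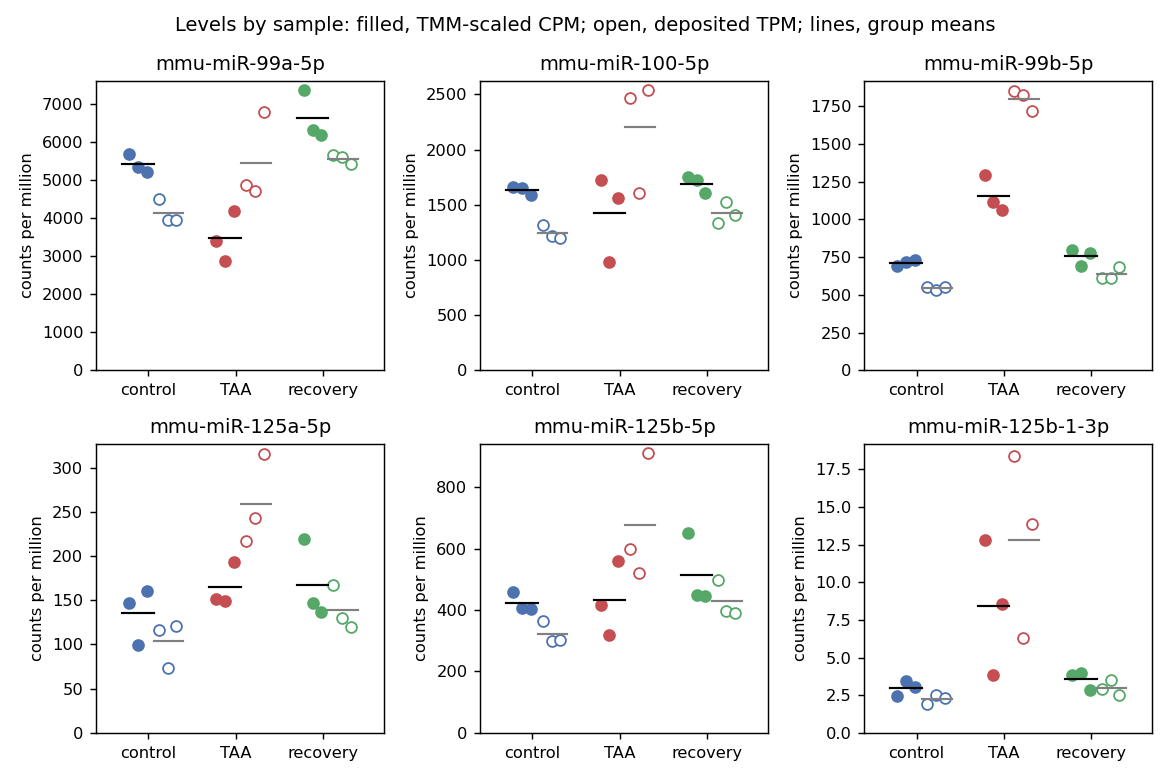
Level of each member by sample, in counts per 1000000 on axes that start at 0, for control (blue), TAA (red) and recovery (green) livers. Filled points are TMM-scaled CPM, open points the deposited TPM and lines the group means. The 3 TAA libraries of mmu-miR-99b-5p lie above the other libraries on both scales, whereas those of mmu-miR-99a-5p lie below control in CPM and above control in TPM.

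In TAA vs control, 3 of the 6 members passed a false discovery rate (FDR) below 0.05, 2 higher and 1 lower, and mmu-miR-99a-5p and mmu-miR-99b-5p, which share a seed, passed in opposite directions with TMM but were both higher with library totals. Of all 420 tested miRNAs, 58.3% passed this threshold, 31.9% higher and 26.4% lower in TAA, so the members' share lies near that of the whole table. Among them 1 was a differentially expressed miRNA (DEM), which the study defined by this FDR together with a change of 2-fold or more, against 41.7% of all tested miRNAs. The median log2 fold change was 0.07 over the members and 0.11 over all tested miRNAs. The CPM of the groups did not overlap for 3 members, 2 higher and 1 lower in TAA, and for 39.3% and 27.4% of all tested miRNAs. In recovery vs TAA, which shares the TAA libraries with the first comparison, 3 of 6 members passed (39.1% of 440 tested miRNAs did, 18.4% higher and 20.7% lower) and 1 was a DEM (24.8%). The median log2 fold change there was 0.11 over the members and -0.12 over all. By CPM the groups were apart for 1 member higher in recovery and 1 lower, and for 24.5% and 28.9% of all tested miRNAs. In recovery vs control none of the 6 members passed with edgeR, DESeq2 or limma, against 14.1% of 391 tested miRNAs (12% higher, 2.05% lower) and 11.3% that were DEMs (10.5% higher, 0.767% lower), and 1 member had an unadjusted p under 0.05. By CPM, but not by TPM, the groups were apart for only 1 member, higher in recovery, and for 17.4% (higher) and 9.97% (lower) of all tested miRNAs. With library totals all 6 members were higher in TAA than in control and passed, 5 were lower in recovery than in TAA, and 1 was higher in recovery than in control. On that scale 302 of all 420 tested miRNAs passed as higher in TAA than in control. Likewise 264 of 440 passed as lower in recovery than in TAA, and 58 of 391 as higher in recovery than in control.

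Of the miR-99/100 family, mmu-miR-99a-5p was the most abundant. Its level was 5688, 5343 and 5229.9 CPM in control replicates 1 to 3, 3412, 2883 and 4184 in TAA and 7391, 6329 and 6187 in recovery. No TAA library reached the lowest control library, and every recovery library was above every control library. It fell in TAA vs control (log2 fold change -0.72, SE 0.14, FDR 0.00411), but with library totals it was higher in TAA (0.40, FDR 0.0493), less so than the median miRNA on that scale (1.23). It rose in recovery vs TAA (0.90, SE 0.16, FDR 0.00396), whereas with library totals the difference was 0.03 (FDR 0.901). The deposited TPM show the same scaling: 4505, 3946 and 3949 in control, 4887, 4709 and 6800 in TAA, and 5663, 5616 and 5420 in recovery. Recovery against control gave 0.25 (SE 0.10, unadjusted p = 0.0319, FDR 0.166 by edgeR), and with library totals 0.43 (FDR 0.0147).

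The next most abundant, mmu-miR-100-5p, was at 1656, 1652 and 1588 CPM in control, 1721, 985 and 1565 in TAA, and 1748, 1723 and 1606 in recovery. TAA replicate 2 stood below all other libraries and the other TAA values lay close to control. No comparison passed, with a log2 fold change of -0.29 for TAA against control (SE 0.18, FDR 0.205), 0.24 for recovery against TAA (SE 0.19, FDR 0.367) and 0.01 for recovery against control (SE 0.09, FDR 0.957). The first was -0.10 without TAA replicate 2. With library totals the first pair reversed to 0.83 (FDR 0.00461) and -0.63 (FDR 0.0230).

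The Mir99b product mmu-miR-99b-5p was at 693, 718 and 728 CPM in control, 1293, 1118 and 1059 in TAA, and 799, 689.9 and 778 in recovery. Every TAA library was above every other library, and recovery overlapped control in CPM. In TPM every recovery library was above every control library (612, 612 and 682 against 549, 530 and 549). With TMM mmu-miR-99b-5p rose in TAA vs control (0.61, SE 0.11, FDR 0.00244) and fell in recovery vs TAA by 0.64 on the log2 scale (SE 0.13, FDR 0.00741). Library totals gave the same directions, with 1.73 and -1.50, past the median miRNA in both. Recovery vs control gave 0.05 (SE 0.10, FDR 0.854). The calls of mmu-miR-99a-5p and mmu-miR-99b-5p held without any 1 library, with FDR of at most 0.0189 and 0.0464.

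Because these miRNAs share a seed, their counts were also set against each other within each library, a measure that no library scaling changes. The ratio of mmu-miR-99a-5p to mmu-miR-99b-5p was 8.21, 7.44 and 7.19 in control, 2.64, 2.58 and 3.95 in TAA and 9.26, 9.17 and 7.95 in recovery. TAA libraries lay apart from all others, and recovery overlapped control. On the log2 scale the mean ratio was lower by 1.34 in TAA than in control (difference -1.34) and higher by 1.55 in recovery than in TAA, each with p = 0.1 by the exact two-sided permutation test and 0.225 after adjustment over 36 tests of 12 ratios. With 3 libraries against 3 the smallest p is 0.1, so none of these tests can pass 0.05.

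The ratio of mmu-miR-99a-5p to mmu-miR-100-5p, which differ by 1 base, was 3.43, 3.23 and 3.29 in control, 1.98, 2.93 and 2.67 in TAA, and 4.23, 3.67 and 3.85 in recovery. All 3 groups were apart, with log2 differences of -0.41 for TAA against control, 0.65 for recovery against TAA and 0.24 for recovery against control (each exact permutation p = 0.1). The ratio of mmu-miR-99b-5p to mmu-miR-100-5p was 0.418, 0.434 and 0.458 in control, 0.751, 1.14 and 0.677 in TAA and 0.457, 0.400 and 0.485 in recovery. TAA libraries were again apart, with log2 differences of 0.93 and -0.90, and recovery vs control gave 0.03 (exact permutation p = 0.8).

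As a share of the family's counts, mmu-miR-99a-5p made up 69.8% ± 0.853 in control, 57.5% ± 4.19 in TAA and 73.0% ± 1.21 in recovery (SD, n = 3). The share of mmu-miR-99b-5p was 9.19% ± 0.523, 19.4% ± 3.50 and 8.34% ± 0.647, and that of mmu-miR-100-5p 21.0% ± 0.405, 23.2% ± 3.52 and 18.7% ± 1.06. The summed level of the family was 7765 ± 250 CPM in control, 6073 ± 961 in TAA and 9084 ± 744 in recovery, but in TPM it was 5920 ± 386, 9471 ± 1479 and 7626 ± 124.9, so the direction between control and TAA depended on the scale. How the authors assigned reads that match mmu-miR-99a-5p and mmu-miR-100-5p with a mismatch was not stated. With their counts summed to 1 row the log2 fold changes were -0.62 (FDR 0.00724), 0.74 (FDR 0.00854) and 0.20 (FDR 0.271) in the 3 comparisons, in the order used above.

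**Figure D2:**
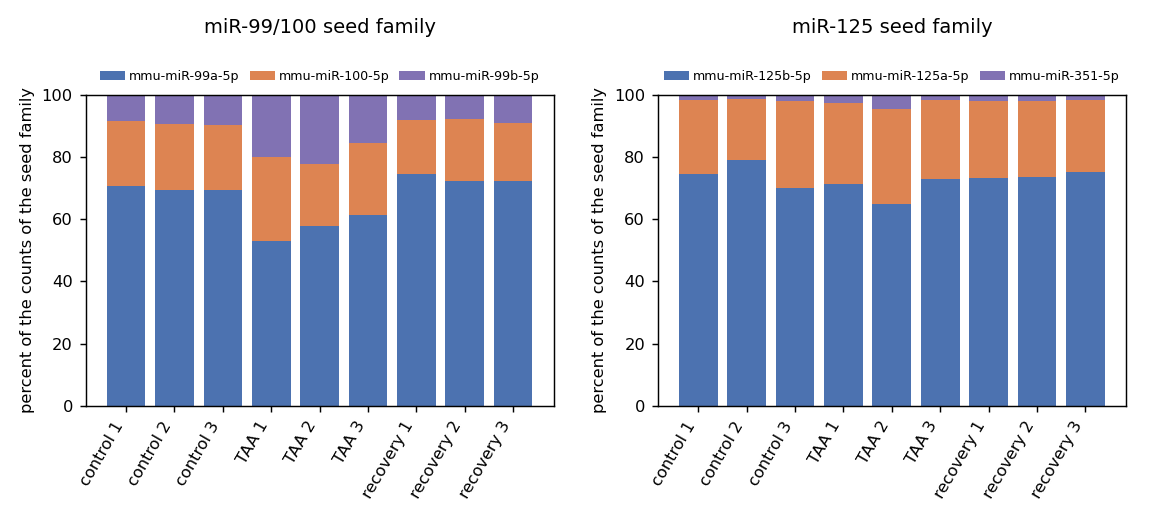
Share of each miRNA in the counts of its seed family in percent, 1 bar per library, for the miR-99/100 seed (left) and the miR-125 seed (right). The part of mmu-miR-99b-5p is 15.6% to 22.4% in the TAA libraries and at most 9.64% in the others.

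The miR-125 members of the 5p arm did not pass the test in any comparison with TMM. The more abundant, mmu-miR-125b-5p, was at 458, 406 and 402 CPM in control, 418, 319 and 561 in TAA and 650.4, 448 and 445 in recovery. In CPM the groups overlapped in each comparison. In TPM none did, with 363, 300 and 304 in control, 599, 521 and 911 in TAA and 498, 398 and 390 in recovery. TAA differed from control by -0.05 on the log2 scale (SE 0.21, FDR 0.846), recovery from TAA by 0.23 (SE 0.24, FDR 0.494) and recovery from control by 0.25 (SE 0.15, FDR 0.422). With library totals the first was 1.07 (FDR 0.00360) and the next -0.66 (FDR 0.0392), in the direction of the median miRNA and smaller than it.

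The Mir99b cluster's mmu-miR-125a-5p was at 147, 99.9 and 161 CPM in control, 151, 149 and 194 in TAA and 219, 147 and 137 in recovery. Its groups overlapped in each comparison in CPM. In TPM the TAA libraries lay above both other groups, and recovery overlapped control. TAA against control gave a log2 fold change of 0.20 (SE 0.21, FDR 0.446), recovery against TAA -0.0019 (SE 0.22, FDR 0.994) and recovery against control 0.26 (SE 0.21, FDR 0.581), and with library totals the first pair was 1.32 and -0.89. Relative to mmu-miR-125b-5p its counts were at 0.320, 0.246 and 0.399 in control, 0.362, 0.467 and 0.346 in TAA and 0.337, 0.327 and 0.307 in recovery. TAA overlapped control (log2 difference 0.30, exact permutation p = 0.4), and recovery lay just below TAA (-0.26, exact permutation p = 0.1). The row mmu-miR-351-5p, from chromosome X, held 1.81% ± 0.357 of the counts of the miR-125 seed in control, 3.06% ± 1.46 in TAA and 1.99% ± 0.228 in recovery. It gave log2 fold changes of 0.68 (SE 0.29, FDR 0.0752), -0.37 (SE 0.30, FDR 0.358) and 0.38, none of which passed.

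With TMM the 3p arm of Mir125b-1, mmu-miR-125b-1-3p, was the only DEM among the members, whereas with library totals other members were DEMs too. The hairpin is shown because with TMM its 3p arm was called while the 5p row, which Mir125b-2 shares, was not. With library totals both rows were called. The 5p arm comes first and the 3p arm second in capitals (RefSeq, GRCm38.p6, chr9:41581926-41582002, plus strand).
Mir125b-1 hairpin: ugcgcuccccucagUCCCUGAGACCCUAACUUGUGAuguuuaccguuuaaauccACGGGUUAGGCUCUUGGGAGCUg

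It was a rare miRNA, with 25, 26 and 23 counts in control, 208, 57 and 127 in TAA and 36, 43 and 31 in recovery. This came to 2.43, 3.43 and 3.06 CPM in control, 12.8, 3.85 and 8.53 in TAA, and 3.85, 3.95 and 2.84 in recovery. TAA replicates 1 and 3 stood well above the rest, while TAA replicate 2 lay just above control and within the range of recovery. It rose in TAA vs control (1.40, SE 0.42, FDR 0.0253) and fell in recovery vs TAA by 1.25 on the log2 scale (SE 0.41, FDR 0.0457), and library totals gave the same directions (2.51 and -2.11). Recovery vs control gave 0.22 (SE 0.28, FDR 0.767).

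Both calls of mmu-miR-125b-1-3p lay close to the threshold and did not hold in most fits with 1 library left out. In TAA vs control the FDR was 0.0792, 0.0534 and 0.0742 without control replicates 1, 2 and 3, 0.0573 without TAA replicate 1 and 0.0548 without TAA replicate 3, and it was 0.00285 without TAA replicate 2. In recovery vs TAA it was 0.129 without TAA replicate 1, 0.0876 without TAA replicate 3 and 0.128, 0.0992 and 0.145 without recovery replicates 1, 2 and 3, and it was 0.00801 without TAA replicate 2. The log2 fold change without TAA replicate 1 was 1.02 and -0.79.

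Against other products of the clusters the same arm also stood apart. Its counts per count of mmu-miR-100-5p, the first miRNA of its own cluster, were 0.00147, 0.00208 and 0.00193 in control, 0.00745, 0.00391 and 0.00545 in TAA and 0.00220, 0.00229 and 0.00177 in recovery. TAA replicate 2, low in both rows, lay above all control and recovery libraries by this ratio. The log2 difference was 1.56 between TAA and control, -1.37 between recovery and TAA (each exact permutation p = 0.1) and 0.19 between recovery and control (exact permutation p = 0.5).

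The paralogous arm mmu-miR-125b-2-3p, of the Mir99a cluster, was at 38.3, 40.5 and 32.6 CPM in control, 36.4, 34.02 and 31.8 in TAA and 39.2, 30.03 and 40.2 in recovery. It did not pass in any comparison (-0.21, 0.08 and -0.06), and with library totals the first pair was 0.91 (FDR 0.00128) and -0.79 (FDR 0.0064). There were 15.8, 11.8 and 10.7 counts of it per count of mmu-miR-125b-1-3p in control, 2.84, 8.84 and 3.72 in TAA and 10.2, 7.61 and 14.2 in recovery. TAA lay below control (log2 difference -1.45, exact permutation p = 0.1), and recovery overlapped both. Relative to mmu-miR-99a-5p of its own cluster it was higher in TAA than in control or recovery, with log2 differences of 0.53 and -0.85 (each exact permutation p = 0.1).

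**Figure D3:**
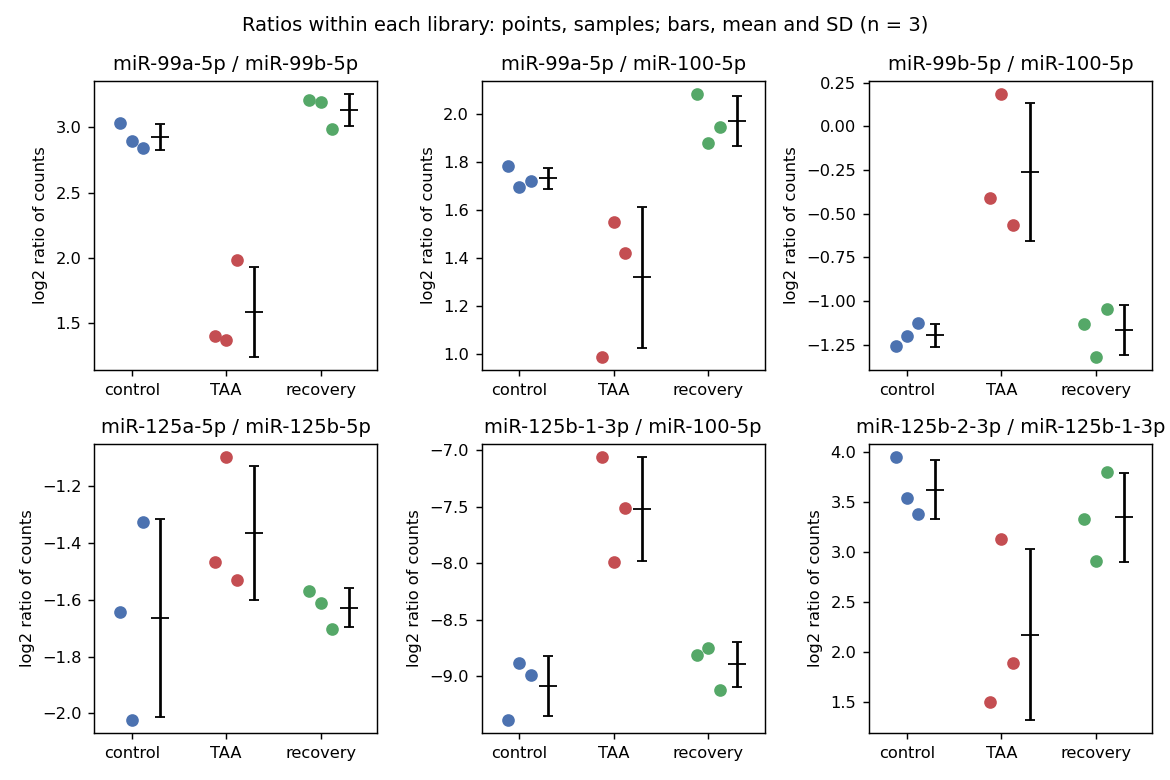
Log2 ratio of the counts of pairs of miRNAs within each library, by group. Points are libraries and bars the mean and SD (n = 3). The log2 ratio of mmu-miR-99a-5p to mmu-miR-99b-5p averages 2.93 in control, 1.58 in TAA and 3.13 in recovery.

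Set side by side with TMM, products differed in their changes between clusters and also within a cluster. Of the 11 other mature products of the clusters in the table, 8 could be tested, of which 2 rose and 3 fell in TAA vs control, whereas 7 rose and 0 fell with library totals. Of all 420 tested miRNAs 134 rose and 111 fell there, and 302 and 22 with library totals. Against TAA 2 of the 8 products rose and 2 fell in recovery (0 and 6 with library totals). Of all 440 tested miRNAs 81 rose and 91 fell (18 and 264 with library totals). Between recovery and control none of the products passed by edgeR, DESeq2 or limma, and 0 of the 8 had an unadjusted p under 0.05 in edgeR. In the Mir99b cluster the other arm mmu-miR-99b-3p rose with mmu-miR-99b-5p. It was at 16.0, 20.98 and 18.2 CPM in control, 40.3, 35.0 and 29.9 in TAA and 17.8, 16.8 and 18.4 in recovery, with no overlap of TAA with the rest. Its log2 fold change was 0.84 in TAA vs control (SE 0.18, FDR 0.00544) and -1.01 in recovery vs TAA (SE 0.18, FDR 0.00367), and library totals gave 1.96 and -1.87. The ratio of its counts to those of mmu-miR-99b-5p was 2.58% ± 0.310 in control, 3.02% ± 0.172 in TAA and 2.35% ± 0.102 in recovery.

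The cluster's let-7 product, mmu-let-7e-5p, was at 158, 162 and 165 CPM in control, 245, 195 and 206 in TAA and 141, 165 and 166 in recovery. TAA lay above both other groups. It rose in TAA vs control (0.32, SE 0.12, FDR 0.0481) and fell in recovery vs TAA by 0.47 (SE 0.14, FDR 0.0355), with the same directions by library totals (1.44 and -1.33). The DESeq2 test gave FDR of 0.0621 and 0.0824. Without control replicates 1, 2 and 3 the FDR of TAA vs control was 0.147, 0.150 and 0.143, without TAA replicates 1 and 2 it was 0.0773 and 0.0563, and it stayed below 0.05 without TAA replicate 3 (0.0378). In recovery vs TAA it was 0.132, 0.0745 and 0.0874 without TAA replicates 1, 2 and 3 and 0.198, 0.104 and 0.115 without recovery replicates 1, 2 and 3.

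Its counts per count of mmu-miR-99b-5p were nearly the same in the 3 control libraries, at 0.227, 0.226 and 0.227. They were lower in the TAA libraries, at 0.190, 0.174 and 0.194, and were 0.177, 0.239 and 0.213 in recovery. The log2 difference of TAA vs control was -0.29 (exact permutation p = 0.1), and recovery overlapped both groups. The remaining arms of this cluster, mmu-let-7e-3p and mmu-miR-125a-3p, did not pass, with log2 fold changes of -0.29 and 0.08 for TAA against control and of -0.03 and -0.48 for recovery against TAA.

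In the Mir99a cluster the passenger arm mmu-miR-99a-3p was near the limit of detection, with 14, 14 and 12 counts in control, 15, 10 and 6 in TAA and 16, 21 and 15 in recovery. By TMM it fell in TAA vs control by 1.33 (SE 0.38, FDR 0.0217) and rose in recovery vs TAA (1.29, SE 0.38, FDR 0.0303), both as for mmu-miR-99a-5p, but library totals gave -0.22 and 0.44 and no call. The DESeq2 test gave FDR of 0.0607 and 0.0649. In TAA vs control the FDR was 0.0520, 0.0846 and 0.0636 without control replicates 1, 2 and 3 and 0.0625 and 0.0730 without TAA replicates 2 and 3. In recovery vs TAA it was 0.0597 and 0.106 without TAA replicates 2 and 3 and 0.0780 and 0.0991 without recovery replicates 1 and 2.

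The let-7 products that the other clusters share with further genes were lower in TAA than in control with TMM, unlike mmu-let-7e-5p, but higher with library totals. Mirlet7c-1 of the Mir99a cluster yields mmu-let-7c-5p, whose sequence is also made by Mirlet7c-2 on chromosome 15. It was at 2598, 2582 and 2551 CPM in control, 2272, 1797 and 1916 in TAA and 2543, 2883 and 2395 in recovery. TAA lay below both other groups. It fell in TAA vs control by 0.46 (SE 0.10, FDR 0.00648) and gave 0.37 in recovery vs TAA (SE 0.14, FDR 0.0637), while library totals turned both signs (0.66 and -0.49). The second value passed without TAA replicate 1 (0.51, FDR 0.0234).

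Mirlet7a-2 of the Mir100 cluster yields mmu-let-7a-5p, as do other let-7a genes such as Mirlet7a-1 on chromosome 13. Its level was 4655, 4725 and 4837 CPM in control, 3142, 2889 and 2697 in TAA and 4635, 4759 and 4116 in recovery. It fell in TAA vs control by 0.79 (SE 0.09, FDR 0.000433) and rose in recovery vs TAA (0.61, SE 0.12, FDR 0.00674), and library totals turned both signs (0.33 and -0.26). The mature let-7 members differ from it by a single base, A19G in mmu-let-7c-5p and U9G in mmu-let-7e-5p. The 3p arm of Mirlet7a-1, mmu-let-7a-1-3p, which none of the clusters holds, fell in TAA vs control by 0.57 (SE 0.16, FDR 0.0178) and with library totals was higher (0.55, FDR 0.0201). Since the let-7a-5p and let-7c-5p rows pool several genes, they do not measure the let-7 output of either cluster alone.

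**Figure D4:**
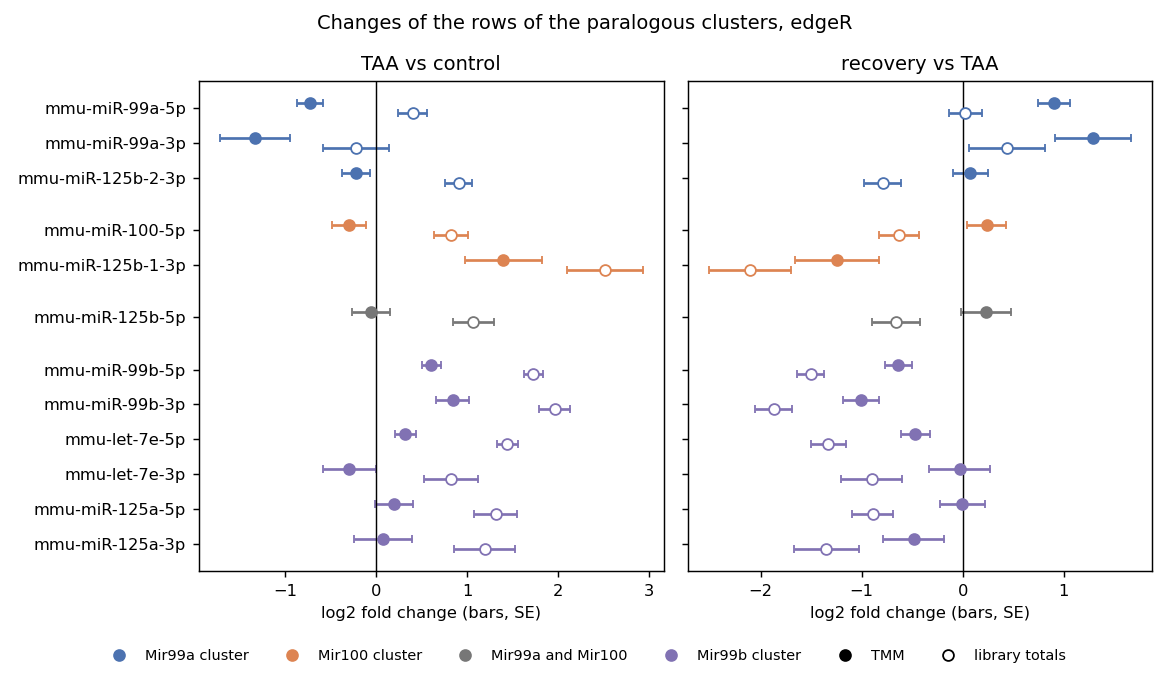
Log2 fold changes with SE of the tested products made by a single one of the clusters, and of mmu-miR-125b-5p, made by 2 of them, in TAA vs control (left) and recovery vs TAA (right). Filled points are scaled by TMM and open points by library totals. With TMM, mmu-miR-99a-5p is at -0.72 and mmu-miR-99b-5p at 0.61 in TAA vs control, and all but mmu-miR-99a-3p are above 0 with library totals.

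Over the let-7 family as a whole, 9 mature 5p rows were tested. With TAA 2 of them rose and 5 fell against control, whereas 8 rose and 0 fell with library totals. Of all 420 tested miRNAs 134 rose and 111 fell there, and 302 and 22 with library totals. In recovery vs TAA 81 of all 440 rose and 91 fell, and 18 and 264 with library totals. After withdrawal 3 let-7 rows rose and 2 fell against TAA (0 and 7 with library totals), and none of the let-7 rows passed against control by edgeR, DESeq2 or limma. In edgeR mmu-let-7g-5p alone had an unadjusted p under 0.05 (0.0420). The median log2 fold changes were -0.34, 0.24 and -0.08. The other riser was mmu-let-7i-5p, which rose in TAA vs control (0.90, SE 0.13, FDR 0.00102) and fell in recovery vs TAA by 0.96 (SE 0.14, FDR 0.00195).

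The rows with the pattern most like each member were ranked by Pearson's r of log2(CPM + 1) over the 9 samples, among 215 miRNAs with a mean of at least 10 CPM. The members, the other products of the clusters and mmu-let-7a-1-3p were left out of this ranking. These samples share 3 groups and 1 scaling, so the values only describe likeness. For mmu-miR-99a-5p they were mmu-miR-29a-3p (r = 0.942), mmu-miR-26a-5p (0.934) and mmu-miR-455-3p (0.930), and for mmu-miR-99b-5p they were mmu-let-7i-5p (0.969), mmu-miR-34a-5p (0.962) and mmu-miR-183-5p (0.962). With library totals mmu-miR-455-3p no longer resembled mmu-miR-99a-5p (-0.086), whereas the 3 rows of mmu-miR-99b-5p stayed at 0.988 or more.

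For mmu-miR-100-5p the closest row was mmu-miR-145a-5p (0.921), a miRNA of smooth muscle and of activated stellate cells, followed by mmu-miR-10a-3p (0.802) and mmu-miR-10a-5p (0.792). With TMM mmu-miR-145a-5p did not pass in TAA vs control (log2 fold change -0.25, FDR 0.272), whereas 3 of the 5 stellate cell or fibroblast markers rose. With library totals all 5 rose. The rows closest to mmu-miR-125b-1-3p were mmu-miR-195a-5p (0.932), mmu-miR-199a-5p (0.916), which stellate cells and fibroblasts are known to express, and mmu-let-7i-5p (0.891). For the miR-125 members of the 5p arm the highest r among the ranked miRNAs with TMM was 0.644 for mmu-miR-125a-5p (mmu-miR-351-5p) and 0.683 for mmu-miR-125b-5p (mmu-miR-10b-5p). With library totals it was 0.948 for mmu-miR-125a-5p (mmu-miR-200c-3p) and 0.925 for mmu-miR-125b-5p (mmu-miR-224-5p), and mmu-miR-351-5p reached 0.924 with mmu-miR-125a-5p. Between mmu-miR-125a-5p and mmu-miR-125b-5p, which were not ranked, r was 0.652 with TMM and 0.929 with library totals.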

How the data were processed

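Small RNAs of 9 mouse livers (3 control, 3 TAA, 3 recovery) were analysed. Its mRNA sequencing was not used here. Total RNA was extracted with TRIzol, and the submitters' processing notes name Bowtie 1.3.0 and the genome build mm10. The authors deposited read counts per mature miRNA, not normalized, and TPM. In the deposited table the TPM equalled the count over the column total times 1000000 (largest difference 5.0e-05), with no term for length. All columns were assigned to samples (0 columns of no sample). How a read matching more than 1 miRNA was counted was not stated.

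Groups and replicate numbers came from the labels. Each comparison used the counts of its 6 samples in edgeR 4.0.16 (R 4.3.3) with filterByExpr (minimum count 10), TMM factors and the quasi-likelihood test without covariates. P-values were adjusted over all tested miRNAs with the Benjamini-Hochberg method (FDR), with a threshold of 0.05. The SE was the log2 fold change over the square root of F. Printed CPM use TMM factors over all 9 samples. Log2 ratios within libraries used a pseudocount of 0.5 counts and exact two-sided permutation tests, and ratios with a row under 10 counts in any sample were not tested. The edgeR step was tested on simulated data. Depth (9071847 to 12983378 counts) limits rare miRNAs most, where a few counts move the value.

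Alternatives were library totals, DESeq2 1.42.0 (its size factors and its test), limma 3.58.1 on log2(TPM + 1), other filters, all 9 samples in 1 fit, the replicate number as a block, removal of the abundant mmu-miR-122-5p row and the overlapping mmu-miR-122b-3p, and each library left out in turn. Named miRNAs were the members, the other products of their clusters with mmu-let-7a-1-3p, rows with a member's seed and the let-7 family. Also named, for each member, were the 3 rows of highest Pearson's r outside the members and those products. The members and lists were chosen with earlier results of these data known. Loci came from GENCODE M21 and sequences from RefSeq.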

Additional observations from a re-analysis of the deposited data

How the results depend on the processing

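Under the alternatives 449 of the log2 fold changes kept their direction and side of the threshold, 51 lost the call, 7 gained it and 60 changed sign. Library totals and limma on log2(TPM + 1) gave 32 of the sign changes, 12 of them in TAA vs control and 10 in each other comparison, and the other settings gave 28. None of the 294 recomputed ratios moved by more than the SD between replicates. Library scaling cannot change a ratio and the rule differs from that for fold changes, so these counts cannot be compared. With 1 library left out some ratio differences near 0 changed sign. For mmu-let-7e-5p to mmu-miR-125a-5p in TAA vs control the log2 difference was -0.04 to 0.32. With library totals 6 of the 6 members passed in TAA vs control, 5 between recovery and TAA and 1 between recovery and control, and 4 and 2 were DEMs in the first pair of comparisons. Of all tested miRNAs 324 of 420, 282 of 440 and 63 of 391 passed on that scale, with 245 and 207 DEMs in the first pair. Limma on log2(TPM + 1) gave 5 members and 4 DEMs in TAA vs control and 2 DEMs in recovery vs TAA. Over all tested miRNAs limma called 317 of 420 in TAA vs control, with 212 DEMs, and gave 158 DEMs of 440 in recovery vs TAA. The number of DEMs was 0 in both comparisons with a mean of at least 10 CPM, which removed mmu-miR-125b-1-3p, and 0 in recovery vs TAA with size factors of DESeq2. Leaving out 1 library gave 2 to 3 members and 0 to 1 DEMs in either comparison with TAA, and 0 members in recovery vs control.

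In TAA vs control, library totals and limma gave 0.40 and 0.39 for mmu-miR-99a-5p, 0.83 and 0.80 for mmu-miR-100-5p, 1.07 and 1.03 for mmu-miR-125b-5p, 0.33 and 0.33 for mmu-let-7a-5p, 0.66 and 0.66 for mmu-let-7c-5p, and 0.91 and 0.89 for mmu-miR-125b-2-3p. In recovery vs TAA they gave -0.63 and -0.60 for mmu-miR-100-5p, -0.66 and -0.62 for mmu-miR-125b-5p, -0.26 and -0.26 for mmu-let-7a-5p, -0.49 and -0.50 for mmu-let-7c-5p, and -0.79 and -0.78 for mmu-miR-125b-2-3p. In recovery vs control they gave 0.09 and 0.09 for mmu-miR-99b-3p, 0.12 and 0.10 for mmu-let-7e-5p, 0.07 and 0.07 for mmu-let-7a-5p, 0.16 and 0.16 for mmu-let-7c-5p, and 0.11 and 0.11 for mmu-miR-125b-2-3p. A mean of at least 10 CPM gave 0.18 for mmu-miR-125b-5p and 0.01 for mmu-miR-125b-2-3p in TAA vs control, -0.11 for mmu-miR-125b-2-3p in recovery vs TAA, and 0.05 for mmu-let-7c-5p and 0.01 for mmu-miR-125b-2-3p in recovery vs control.

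Other sign changes were of values near 0. For mmu-miR-125b-5p in TAA vs control the fit of all 9 samples gave 0.03, and leaving out 1 library gave -0.28 to 0.12. For mmu-miR-125a-5p in recovery vs TAA the value was 0.06 with size factors of DESeq2, 0.07 with its test, 0.01 without the miR-122 rows, 0.0 with mmu-miR-99a-5p and mmu-miR-100-5p summed, 0.02 with all 9 samples and -0.17 to 0.16 with 1 library left out. In recovery vs control mmu-miR-100-5p was at -0.01 without a filter and at -0.03 to 0.03 with 1 library left out, and mmu-let-7c-5p at 0.02 without the miR-122 rows, 0.02 with all 9 samples and -0.08 to 0.02 with 1 library left out. Leaving out 1 library there also gave -0.09 to 0.14 for mmu-miR-99a-3p, -0.13 to 0.02 for mmu-let-7e-5p and -0.17 to 0.08 for mmu-miR-125b-2-3p. The cause was not tested.

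Mice with the same replicate number are different animals, and nothing in the labels pairs them. Their deviations from the group means correlated at -0.241 to 0.242. From 3 libraries per group, these values cannot tell whether such mice shared a batch. With the replicate block 3, 2 and 0 members passed, and mmu-miR-125b-1-3p in recovery vs TAA was at -1.13 (FDR 0.0737), which left 0 DEMs there.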
